A study of Mus musculus with 4 samples.

Results

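Endothelial cells of the mouse embryo that carried transcripts of at least 2 of the 4 genes Tll1, Flrt2, Adgrg6 and Lhx6 were described here. A cell was taken as endothelial if it held no UMI of Ptprc, at least 3 of the 6 genes Cdh5, Pecam1, Tie1, Egfl7, Kdr and Esam, and at least 8 UMIs of those 6 genes per 10000. UMIs (unique molecular identifiers) count single captured RNA molecules. Cells with 2 or more UMIs of Prox1, the factor of lymphatic endothelium, or of Runx1, the factor of blood-forming endothelium, were left out. These limits gave 4043 cells, called members here, among 17003 endothelial cells and 44168 cells in all. The 4 genes had been picked from these same libraries, so their levels in members are a description and support nothing.

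The libraries come from the aorta-gonad-mesonephros region (AGM) of C57BL/6J embryos at E11.5. CD31+ cells were split by their signal of TMRM, a dye that enters mitochondria in proportion to their potential. The weakly stained fraction (MMPlow) and the strongly stained one (MMPhigh) gave 2 libraries each. The labels name no transgene, treatment or embryo pool, and nothing says that the libraries are separate litters. The p-values for genes measure only how far the differences between cell populations varied between these libraries, a spread that may be technical. The p-value for shares of cells rests on the libraries themselves, whose spread may be technical too. Kept cells per library ranged from 3486 to 19579, with median UMIs of 3145 and 3741 in the MMPlow libraries and 3685 and 24044.5 in the MMPhigh libraries. The MMPhigh libraries held 44 and 19 endothelial cells, so results on genes rest on the MMPlow libraries. The MMPlow libraries shared 89 barcode sequences among kept cells, and 12 members of each had such a barcode.

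Endothelium divides into arteries, which carry Notch signalling and connexins, veins, which carry the nuclear receptor Nr2f2 and the receptors Ephb4 and Nrp2, capillaries and lymphatics, and the AGM holds the dorsal aorta beside the cardinal veins and the vessels of the mesonephros. Tll1 encodes a secreted tolloid protease that cleaves procollagens and the BMP antagonist chordin. Flrt2 encodes a membrane protein that binds Unc5 netrin receptors and latrophilins. Adgrg6 is an adhesion G protein-coupled receptor for basement membrane proteins, best known from Schwann cells and the developing heart, and Lhx6 is a LIM-homeobox transcription factor best known from cortical interneurons. In the GRCm38 (mm10) annotation Tll1 lies at chr8:64014931-64206271 on the minus strand and Flrt2 at chr12:95692226-95785215 on the plus strand. Adgrg6 lies at chr10:14402583-14545659 and Lhx6 at chr2:36081953-36105408, both on the minus strand. All are protein-coding genes on different chromosomes.

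The members numbered 1760 in MMPlow 1 and 2277 in MMPlow 2, and 3 in each MMPhigh library. They made up 22.7% (exact 95% interval 21.7 to 23.6) and 24.8% (23.9 to 25.7) of endothelial cells in the MMPlow libraries. The share depended on the gate: it was 8.15% and 9.1% with Flrt2 left out and 7.05% and 8.15% with 3 or more of the genes required. In the MMPhigh libraries the share was 6.82% (1.43 to 18.7) and 15.8% (3.38 to 39.6). Intervals here and elsewhere cover counting error only. The MMPhigh shares lay below the MMPlow shares by 12.4 points on average, with an exact two-sided permutation p of 0.33, the smallest that 2 libraries against 2 can give. After thinning every cell to 2000 UMIs the shares were 14.2%, 14.6%, 4.55% and 15.8% in the same order, the difference was 4.24 points, and the groups overlapped (exact permutation p = 1).

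Among the members of the MMPlow libraries 95.4% held Flrt2, 73.7% held Tll1, 40.7% held Lhx6 and 28.0% held Adgrg6. The most frequent combination was Tll1 with Flrt2 alone, in 1627 cells (40.3%), followed by Flrt2 with Lhx6 alone in 695 (17.2%). The combination of Tll1, Flrt2 and Lhx6 was found in 507 cells, that of Tll1, Flrt2 and Adgrg6 in 443, and all 4 genes in 232 (5.75%). Pairs that lacked Flrt2 were rare, with 76 cells for Tll1 and Adgrg6, 78 for Tll1 and Lhx6, and 19 for Adgrg6 and Lhx6. The population is thus mostly one of Flrt2 with a second gene, and for 626 members (15.5%) the gate genes summed to exactly 2 UMIs. Just outside the limits, 5510 endothelial cells held 1 of the genes, 136 cells with 2 or more of them were left out by Prox1 and 232 by Runx1. Inside, 285 members had 1 UMI of Prox1 and 470 had 1 UMI of Runx1. Only 58 members had 8 to 10 endothelial UMIs per 10000, and 35 cells with 6 to 8 met all other limits.

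**Figure D1:**
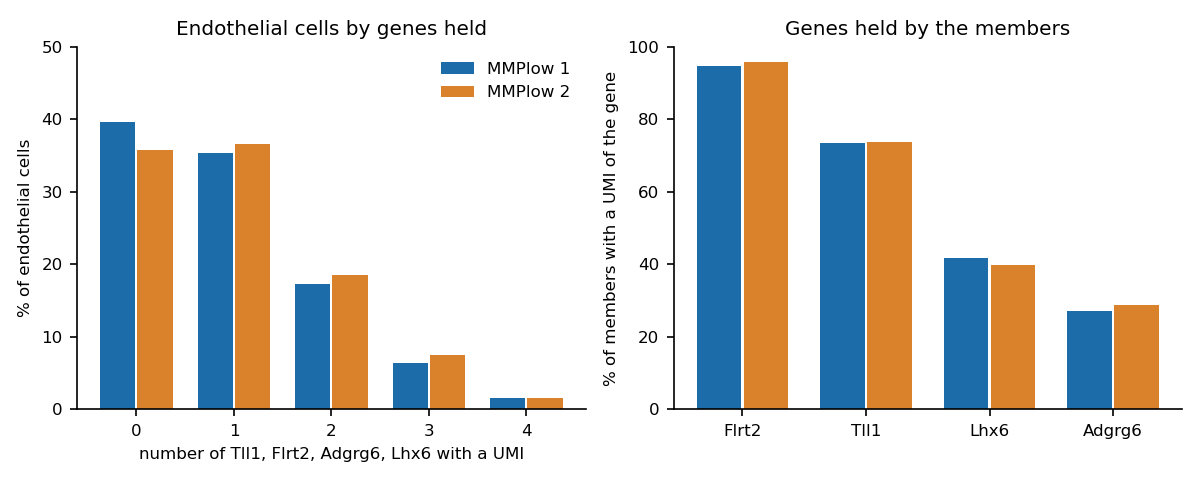
Left, the percentage of MMPlow endothelial cells with Prox1 and Runx1 under 2 UMIs, by how many of the 4 genes had a UMI; right, the percentage of members with a UMI of each gene. Bars are the 2 MMPlow libraries. In both libraries cells with 0 or 1 gene outnumber those with 2 or more, and Flrt2 is held by 95.4% of members over both.

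The genes had been picked together from these cells, so how often each was found beside the others is a description that their choice fixes. In cells thinned to 2000 UMIs, Tll1 had a UMI in 47.0% and 48.6% of endothelial cells that held 2 or more of the other 3 genes, against 9.14% and 9.35% of those that held none of them. For Flrt2 the shares were 77.2% and 77.6% against 30.3% and 32.3%. Adgrg6 was at 17.3% and 17.2% against 2.18% and 2.1%, and Lhx6 at 15.2% and 15.9% against 4.34% and 3.89%. Flrt2 was also frequent in cells that held none of the others. Cells gated as macrophages are given for comparison. Whether their UMIs of these genes come from free RNA, cells caught together or their own transcripts was not tested. Their thinned shares were 3.9% and 4.5% for Tll1 and 8.9% and 9.4% for Flrt2. Adgrg6 was at 1.3% and 1.1% and Lhx6 at 1.7% and 1.4% there. Mesenchyme-gated cells held Flrt2 in 25.4% and 24.4% of cells, and 1367 of 19339 MMPlow cells that were not endothelial (7.07%) met the gate on the 4 genes.

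Both label markers outside the rule were more frequent in members, as a description, since they were named with the same clusters. Zfpm2, a cofactor of GATA factors, had a UMI in 78.5% and 78.3% of thinned members against 52.2% and 53.1% of endothelial cells holding none of the 4 genes, so it was frequent in both. Adamts9, a protease of proteoglycans, was at 39.1% in both libraries against 20.8% and 17.8%. The label's 3 leading genes did not mark every member. Adgrg6 had a UMI in 17.0% and 16.1% of thinned members.

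Members were placed on the arterial and venous sides by genes the rule did not use. The venous limit is 2 or more of Nr2f2, Nrp2, Aplnr and Ephb4. The arterial limit is 2 or more of Gja4, Gja5, Hey1, Dll4 and Bmx. Venous-gated and arterial-gated cells are cells outside the members that meet their own limit and not the other. Members were not held to this, so they can meet both limits. In thinned cells the venous limit was met by 47.3% and 47.8% of members, 33.8% and 33.5% of cells holding 1 gate gene, and 21.1% and 21.3% of cells holding none. The arterial limit was met by 0.852% and 1.32%, 1.89% and 2.42%, and 5.53% and 5.94% of the same groups. Members were the most venous and the least arterial of the 3 populations in both libraries. Flrt2, which 95.4% of members held, was itself uneven outside the members. It had a UMI in 30.7% and 31.7% of thinned venous-gated cells and in 7.9% and 10.7% of arterial-gated cells. How far a gate held mostly by Flrt2 sets this order, and the arterial and venous list counts below, was not tested. Without thinning, 78.5% and 81.3% of members and 40.6% and 43.0% of cells holding none met the venous limit. Members had more UMIs, with medians of 3845.5 and 4517 against 3038 and 3323.5.

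The main comparison asked how members differed from the endothelial cells of the same libraries that held none of the 4 genes (2785 and 2946 cells). UMIs were summed per library and population and given as CPM, each sum scaled to its population's total, and the sums were tested with edgeR with the library as a block. Egfem1, Adamts18 and Ccdc3 led the genes that were higher in members, and 11 of 12 arterial genes were lower. Of 15240 genes tested, 3411 were called at an adjusted p under 0.05 (22.4%), 1596 of them higher (10.5%) and 1815 lower (11.9%). Changes were mostly small. A difference of at least 2-fold was reached by 254 genes that were higher (1.67%) and 230 that were lower (1.51%). Without the block 1236 genes were called, and DESeq2, which kept the block, called 1222.

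Egfem1, an EGF-like and EMI domain protein, was at 115 and 125 CPM in members and at 12.4 and 10.9 CPM in cells holding none. Both members' sums lay far above the others, and the log2 fold was 3.36 ± 0.08 (SE; edgeR adjusted p = 2.29e-36). Adamts18, a secreted metalloprotease, was at 38.7 and 34.7 CPM against 5.57 and 4.22 (log2 fold 2.90 ± 0.13, edgeR adjusted p = 5.23e-32). Nrxn3, a neurexin of cell contacts best known from synapses, was at 410 and 397 CPM against 70.93 and 71.96 (log2 fold 2.48 ± 0.04). The libraries differed little within each population, and none of these values overlapped, as was the case for 7213 of all genes tested (47.3%). The 12 genes with the largest rises held 2 genes of membrane-spanning collagens. Col23a1 was at 277 and 270 CPM against 56.8 and 54.5 (log2 fold 2.28), and Col13a1 at 47.4 and 44.3 CPM against 10.6 and 7.43 (log2 fold 2.34). Slit3, a secreted ligand of Robo receptors, was at 218 and 211 CPM against 48.8 and 44.5 (log2 fold 2.19 ± 0.05). Others of the 12 genes with the largest rises were Ccdc3, a secreted coiled-coil protein, the potassium channel gene Kcnh1, the receptor phosphatase gene Ptpru, the kinase gene Pak7 and Pld5 of the phospholipase D family, with log2 folds of 2.86, 2.85, 2.37, 2.37 and 2.20.

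The 12 genes with the largest falls included several of arterial and sprouting vessels. Esm1, a secreted proteoglycan of sprouting tips, was at 3.67 CPM in members of both libraries against 23.3 and 22.6 CPM in cells holding none (log2 fold -2.66 ± 0.15, edgeR adjusted p = 3.27e-25). Hey1, a transcriptional target of Notch, was at 5.88 and 7.99 CPM against 28.5 and 39.4, and Dll4, the Notch ligand of arteries and tips, at 7.72 and 8.88 CPM against 33.2 and 34.0. The connexin gene Gja4 was at 17.1 and 18.9 CPM against 82.6 and 93.1. For each of these genes both sums of members lay below both sums of cells holding none. Unc5b, a netrin receptor and binding partner of Flrt proteins, was at 18.1 and 16.1 CPM against 80.0 and 85.1 (log2 fold -2.31 ± 0.08). Prdm1, a transcriptional repressor, was at 9.68 and 10.8 CPM against 48.4 and 48.1 (log2 fold -2.24). Abtb2, Prnd, Lrrc3b, Sema3g and Depp1 fell too, with log2 folds of -2.09, -2.09, -2.03, -2.0 and -1.75. Sorbs2os, annotated antisense to Sorbs2, fell by 2.02, and reads of the 2 genes cannot be told apart where the counting strand is not given. Of the cells holding none, 9.69% and 11.8% met the arterial limit.

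From cells holding 0 to 1 to 2 of the 4 genes, the level of all 12 genes that were higher went up in both libraries, and that of all 12 that were lower went down. Beyond 2 genes held the order was not kept by every gene, as with Ccdc3, at 39.6 and 25.6 CPM in MMPlow 1 cells holding 3 and 4, and Abtb2, at 14.9 and 30.1 CPM in those of MMPlow 2. The contrast that named these genes fixes the order of cells holding 0 and 2, so the order is a description; cells holding 1 gene were on neither side of it. Egfem1 was at 12.4, 30.2, 90.4, 155 and 201 CPM in MMPlow 1 cells holding 0, 1, 2, 3 and 4 of them, and at 10.9, 24.7, 79.5, 191 and 298 CPM in MMPlow 2. Nrxn3 was at 70.9, 134, 324, 585 and 576 CPM in MMPlow 1 and at 71.96, 142, 278, 604 and 686 CPM in MMPlow 2. Gja4 ran the other way, at 82.6, 38.05, 19.98, 12.7 and 6.8 CPM in MMPlow 1 and 93.1, 32.8, 21.6, 14.9 and 9.6 CPM in MMPlow 2. A cell with more UMIs can hold more genes, so the order is also one of depth. With cells holding none drawn to match the members' UMIs, 3450 genes were called and all 24 remained called. Only cells holding none were redrawn, so the order over the number of genes held was not tested for depth.

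**Figure D2:**
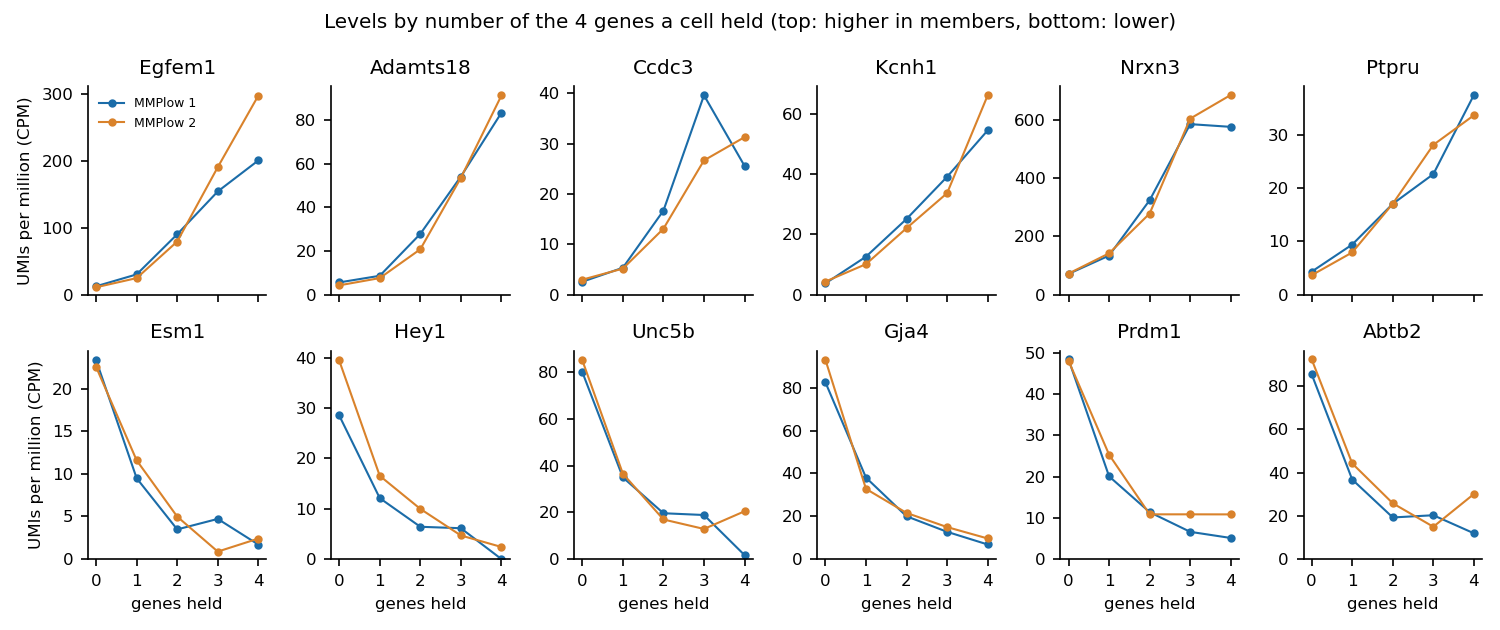
Level in CPM (vertical axes, linear from 0) against the number of the 4 genes held, for the 6 genes with the largest rise (top) and the 6 with the largest fall (bottom). Each line is 1 MMPlow library. Egfem1 runs from 12.4 to 201 CPM and from 10.9 to 298 CPM, and Gja4 from 82.6 to 6.8 CPM and from 93.1 to 9.6 CPM.

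Against cells holding none, the counts of each list below stand beside 10.5% higher and 11.9% lower over all genes tested. Of 12 arterial genes tested, 0 were higher and 11 were lower in members. Their median log2 fold was -1.22 beside -0.01 over all genes tested. Efnb2, the arterial ephrin, was at 94.2 and 102 CPM against 205 and 228 (log2 fold -1.16), and Sox17 at 40.5 and 49.1 CPM against 74.7 and 96.5 (log2 fold -0.96). Jag1, a Notch ligand, did not pass (log2 fold -0.03). Of 8 venous genes 7 were higher and 1 was lower, with a median of 0.72. The 7 include Vwf, which was higher in arterial-gated than in venous-gated cells here, as given below. Nrp2 was at 552 and 571 CPM against 246 and 238 (log2 fold 1.20), Nr2f2 at 186 and 198 CPM against 84.4 and 88.6 (log2 fold 1.13), and Emcn, a sialomucin of veins and capillaries, at 1248 and 1421 CPM against 744 and 817 (log2 fold 0.76). The venous gene that was lower was Flt4, the receptor of Vegfc, at a log2 fold of -0.19.

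In the Notch pathway 2 of 15 genes were higher and 8 lower, beside 10.5% and 11.9% over all genes, but its ligands went apart. Dll1 was at 22.9 and 22.5 CPM in members against 4.49 and 6.08 (log2 fold 2.06 ± 0.14, edgeR adjusted p = 4.69e-21), while Dll4 and Jag2 fell and Jag1 did not pass the test. Both Dll1 sums in members lay above both others, and sums did not overlap for 47.3% of all genes. The receptors Notch1 and Notch4 fell by 0.66 and 1.06 on the log2 scale, and Notch2 was higher (log2 fold 0.45). BMP ligands went apart as well. Bmp4 was at 45.2 and 48.2 CPM against 10.2 and 10.9 (log2 fold 2.14 ± 0.11, edgeR adjusted p = 6.75e-24), whereas Bmp6 was at 4.16 and 4.56 CPM against 11.53 and 12.6 (log2 fold -1.48). Of 21 BMP pathway genes tested 2 were higher, near the share over all genes, and 9 were lower. The other higher one was Id2, an inhibitor of helix-loop-helix factors (log2 fold 0.82).

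Partners of Flrt2 and Adgrg6 moved in both directions. Of 28 Flrt relatives and guidance genes 12 were higher and 11 lower, with a median log2 fold of 0.07. Of the Flrt2 binding partners, Unc5b fell as given above, whereas Unc5c was higher (0.68), and the latrophilins Adgrl2 and Adgrl3 were higher (0.45 and 0.73). The semaphorins Sema3d, at 18.4 and 18.8 CPM against 4.88 and 4.14 (log2 fold 2.03), and Sema3a (0.66) rose, and Sema3g fell. Robo1 and Robo4 were lower (-0.50 and -0.57) and Robo2 higher (1.02). Among 21 basement membrane genes 3 were higher and 12 lower, with a median of -0.37. Lama4, the laminin chain of vessels, was at 219 and 224 CPM against 398 and 429 (log2 fold -0.93), Nid2 at 43.0 and 43.8 CPM against 113 and 109 (-1.37), and Col4a1 at a log2 fold of -0.32. The higher ones were Lama1, Lama2 and Col4a5 (1.52, 0.77 and 0.84), and Lama2 encodes a chain of the laminin that Adgrg6 binds. Of 15 ADAMTS genes other than Adamts9, 6 were higher and 1 lower, with Adamts18, Adamts5 and Adamts17 at log2 folds of 2.90, 1.66 and 1.26. Of 11 LIM-homeobox genes and LIM partners tested, 1 was higher, the LIM cofactor Ldb2 (0.63), and 1 lower, Lmo2 (-0.38), beside 10.5% and 11.9% over all genes.

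Receptors of vessel growth and transcription factors changed gene by gene. Tek, the angiopoietin receptor, was at 520 and 554 CPM against 250 and 281 (log2 fold 0.99 ± 0.03), and Vegfc, the lymphatic growth factor, at 77.7 and 90.3 CPM against 139 and 183 (-0.97). Of 16 SoxF, ETS and Fox factors tested 7 were higher, led by Foxc2 and Foxp1 (1.22 and 0.74), and 5 were lower, the 3 SoxF genes, Ets1 and Ets2. Of 30 Hox genes 8 were higher and 0 lower, among them Hoxa9 at 55.5 and 53.7 CPM against 30.9 and 34.4 (log2 fold 0.71), and 3 and 2 of them were called without the block and by DESeq2. Genes of Wnt-responsive barrier vessels were low, with 0 of 11 higher and 8 lower, Mfsd2a and Apcdd1 among them (-2.22 and -1.08). In the sprouting and capillary list 2 of 10 were higher and 6 lower. Of 11 haemogenic genes 7 were lower, but 0 were called with the comparator matched on UMIs or without the block. Glycolysis genes were lower in 11 of 14, with small folds (median -0.25) apart from Pfkp and the glucose carrier Slc2a1 (-0.97 and -0.69).

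**Figure D3:**
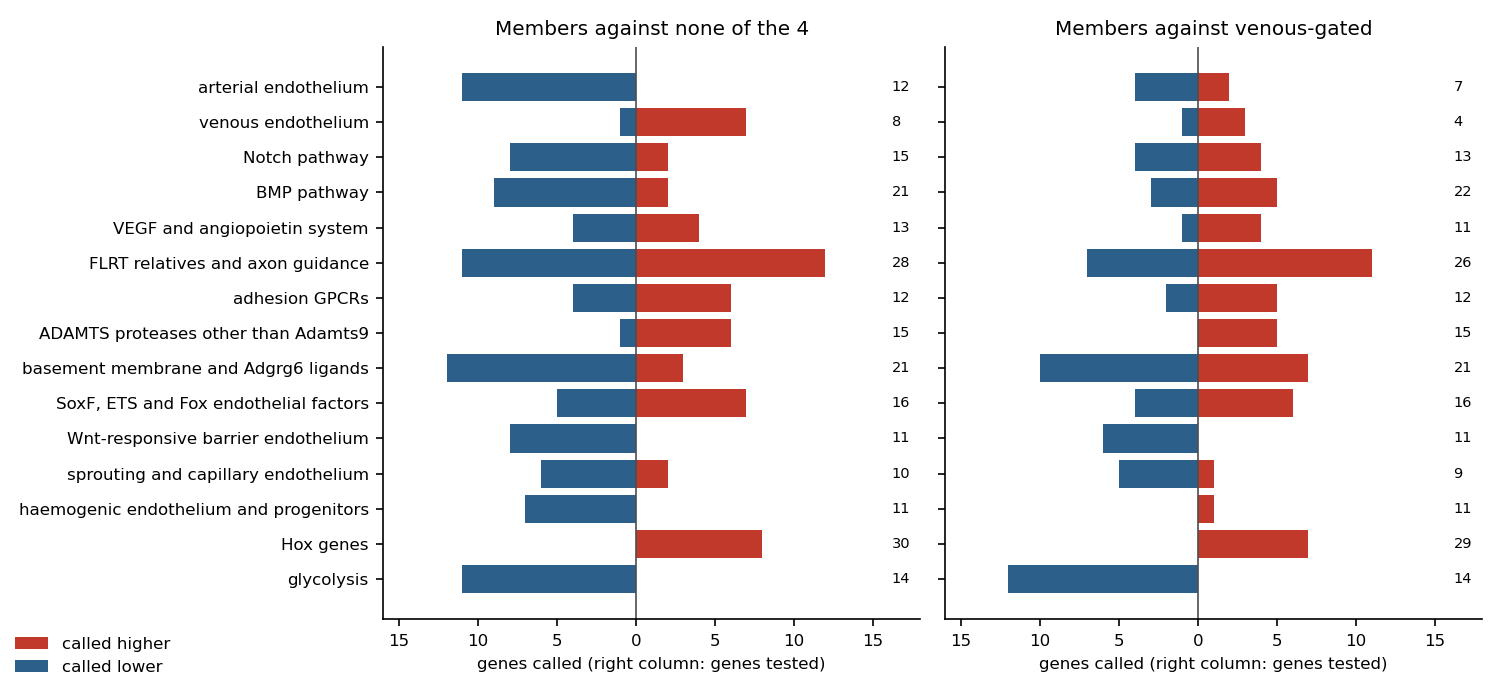
Number of genes called higher (right, red) and lower (left, blue) in members for 15 gene lists, against cells holding none of the 4 genes (left panel) and against venous-gated cells (right panel); the number tested stands at the right edge. Arterial genes have 11 of 12 lower and venous genes 7 of 8 higher in the left panel.

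Markers of other cells were present on both sides. The mesenchyme list summed to 101 and 109 CPM in members and 99 and 98 CPM in cells holding none, with 0 of its 10 genes higher and 1 lower. Macrophage markers summed to 195 and 206 CPM against 249 and 279 (6 of 8 lower), megakaryocyte markers to 315 and 337 CPM against 437 and 547 (4 of 5 lower), and erythroid genes to 159 and 248 CPM against 652 and 253. Other lists leaned higher in members: pericyte and smooth muscle markers summed to 63.3 and 79.6 CPM against 53.4 and 50.3 (0 of 5 called), skeletal muscle markers to 28.4 and 31.2 CPM against 15.8 and 25.4 (1 of 3 higher) and mesothelium markers to 6.49 and 8.15 CPM against 4.98 and 5.57 (1 of 3 higher). Neuron markers summed to 182 and 142 CPM in members, 174 and 182 CPM in cells holding none and 389 and 373 CPM in arterial-gated cells. Against venous-gated cells 1 gene was higher in each of the mesenchyme, pericyte, neuron and skeletal muscle lists. These lists had 10, 5, 7 and 3 genes tested, beside 8.0% of all genes higher in that comparison. None of these markers was at 0 in members, and their part in the results was not tested. Slit3 had a UMI in 48.0% and 46.3% of thinned mesenchyme-gated cells and in 25.2% and 24.0% of members. Adamts18 was at 9.7% and 10.9% of thinned mesenchyme-gated cells and 6.9% and 6.5% of members. Bmp4 was at 10.9% and 9.3% against 7.4% and 9.0%. These genes were thus not specific to endothelium here. Egfem1, Nrxn3 and Vwf went the other way, with lower shares in thinned mesenchyme-gated cells than in members of both libraries. Removing cells with 2 or more mesenchyme markers left 3203 genes called, the 24 named genes among them. The median share of mitochondrial UMIs was 3.49% and 4.01% in members and 3.62% and 4.33% in cells holding none. Of 13 mitochondrially encoded genes 0 were higher and 10 lower, with a median log2 fold of -0.09. Against venous-gated cells 2 of these 13 were higher and 0 lower, beside 8.0% and 10.6% over all genes. Against arterial-gated cells 3 were higher and 2 lower, beside 10.6% and 10.7%. Of 7 immediate early and stress genes 0 were higher and 3 lower against cells holding none. Against venous-gated cells 6 of the 7 were lower.

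The second comparison set members beside arterial-gated cells that were not members (279 and 355 cells). Arterial genes, which the gate makes high in the other cells, were far lower in members, and 21 of 25 S phase genes were higher. Of 14971 genes tested 3189 were called (21.3%), with 1582 higher (10.6%) and 1607 lower (10.7%). A 2-fold difference was reached by 363 higher (2.42%) and 535 lower genes (3.57%), and the sums did not overlap for 54.0%. Without the block 1974 were called, and DESeq2 called 1855. Each comparison uses the same members' sums, so their results are not independent. Tmem100, a membrane protein of BMP signalling in arteries, was at 3.55 and 4.89 CPM in members against 91.1 and 64.1 CPM (log2 fold -4.13 ± 0.20, edgeR adjusted p = 1.84e-42). Sema7a was at 2.33 and 2.85 CPM against 36.3 and 39.2 (log2 fold -3.86), and Tox2 at 2.57 and 2.53 CPM against 27.4 and 37.3 (-3.71). Trim46, St8sia6 and Frmd3 fell too, with log2 folds of -4.03, -4.0 and -3.83. In the other direction, St8sia1, which makes gangliosides, was at 87.2 and 90.3 CPM against 13.7 and 6.54 (log2 fold 3.22 ± 0.20). Tafa2, Col13a1 and the glutamate receptor gene Grik4 were higher with log2 folds of 3.42, 3.38 and 3.33, the last from 1 and 6 UMIs in the arterial-gated sums. Kcnh1 was at 30.9 and 28.3 CPM in members and had 2 UMIs and 0 UMIs in the arterial-gated sums, so no fold is given.

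All 7 arterial genes that were not gate genes were lower than in arterial-gated cells, with a median log2 fold of -2.36, a direction that a gate on arterial genes largely fixes. In S phase 21 of 25 genes were higher and in G2 and M phase 23 of 25. Their medians were 0.55 and 0.50 beside 0.01 over all genes. Of 77 cytosolic ribosome genes 65 were higher too, and no match on long genes or on UMIs was run in this comparison. Arterial-gated cells had median UMIs of 3252 and 3850 against 3845.5 and 4517 in members. Whether the cycle counts depend on this depth was not tested. Mki67, a proliferation marker, was at 257 and 277 CPM in members against 169 and 196 CPM (log2 fold 0.52). Against cells holding none of the genes the G2 and M phase list gave no single direction across settings. S phase had 11 higher and 0 lower, and G2 and M phase 4 higher and 6 lower, but 0 higher and 11 lower with the comparator matched on UMIs and 8 higher and 0 lower with it matched on long genes. Against venous-gated cells S phase had 0 higher and 3 lower, and G2 and M phase 0 higher and 12 lower.

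The third comparison used venous-gated cells that were not members (2495 and 3056 cells). Adamts18 and Egfem1 led the genes that were higher in members, and 5 of 7 sinusoidal genes were lower. Of 14971 genes tested 2788 were called (18.6%), with 1198 higher (8.0%) and 1590 lower (10.6%). A 2-fold difference was reached by 153 higher (1.02%) and 47 lower genes (0.314%). Without the block 634 genes were called, and DESeq2 called 717. Adamts18 was at 7.22 and 5.49 CPM in venous-gated cells, and members were higher by a log2 fold of 2.51 ± 0.12 (edgeR adjusted p = 5.57e-43). Egfem1 was at 23.4 and 20.5 CPM there (log2 fold 2.43 ± 0.07), Slit3 at 62.4 and 47.9 CPM (1.94) and Nrxn3 at 111 and 119 CPM (1.76). Members of both libraries lay above both venous-gated sums for each of these genes. Ccdc3 and Pak7 had log2 folds of 2.11 and 2.04.

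Genes lower in members than in venous-gated cells included markers of sinusoids and capillaries. Kcne3, a potassium channel subunit, was at 12.9 and 14.6 CPM in members against 35.6 and 36.8 CPM (log2 fold -1.43 ± 0.10, edgeR adjusted p = 8.36e-28). Oit3, a secreted protein of liver sinusoids, was at 7.84 and 9.54 CPM against 20.4 and 22.9 (-1.35), and Prdm1 was at 23.3 and 26.3 CPM in venous-gated cells (-1.31). Mdga2, Ehd3 and Spock2 fell by 1.19, 1.18 and 1.18 on the log2 scale. Of 9 sprouting and capillary genes 1 was higher and 5 lower, and of 11 Wnt-responsive barrier genes 0 were higher and 6 lower. Of 7 sinusoidal genes tested 1 was higher and 5 lower, but this list leaned lower only against venous-gated cells. Against cells holding none 2 of 6 were higher and 2 lower, beside 10.5% and 11.9% over all genes. Against arterial-gated cells 3 of 7 were higher and 0 lower, beside 10.6% and 10.7%. Members' sums and venous-gated sums did not overlap for any of the 12 named genes, nor for 44.2% of all genes tested.

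Some genes that members carried above venous-gated cells were higher still in arterial-gated cells. Vwf, which encodes von Willebrand factor, was at 117 and 109 CPM in members, 45.2 and 38.2 CPM in venous-gated and 408 and 404 CPM in arterial-gated cells. Edn1, encoding the peptide endothelin and chosen after its values were seen, was at 41.9 and 33.3 CPM in members, 13.4 and 9.28 CPM in venous-gated and 68.6 and 69.3 CPM in arterial-gated cells. For Vwf and Edn1 members stood between the venous-gated and arterial-gated levels. Bmp4 and Dll1 also exceeded the venous-gated level, by log2 folds of 1.61 and 1.39, and Tek and Foxp1 by 0.53 and 0.64. Of 7 arterial genes outside the limit 2 were higher than in venous-gated cells, Hey2 and Jag1 (1.13 and 0.48), and 4 were lower, Efnb2, Sox17, Unc5b and Notch4 (-0.47, -0.67, -0.87 and -0.62). Of 13 Notch pathway genes 4 were higher and 4 lower.

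**Figure D4:**
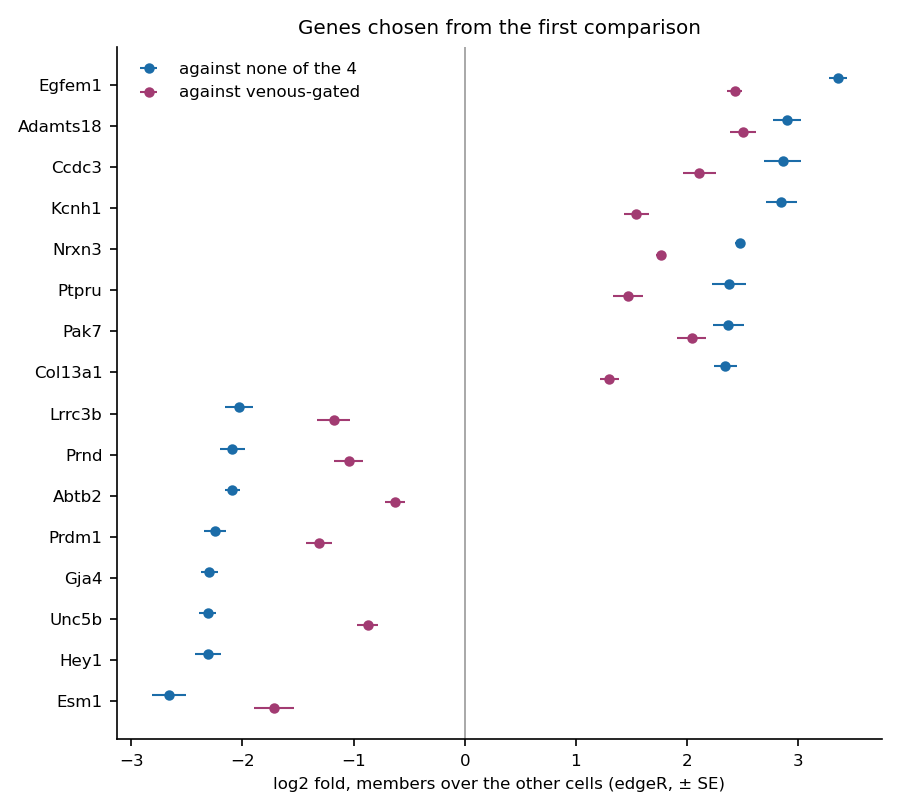
Log2 fold (horizontal axis) of members over endothelial cells holding none of the 4 genes (blue) and over venous-gated cells (purple), with standard errors, for the 8 genes with the largest rise and the 8 with the largest fall in the first comparison. Egfem1 lies at 3.36 and 2.43 and Esm1 at -2.66 and -1.71; Hey1 and Gja4 are among the genes of the arterial limit and are shown for the first comparison only.

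Gene length moved with the calls against cells holding none and against venous-gated cells. In the first of these comparisons 27.99% of genes that span 100 kb or more were higher and 16.8% lower, and 3.79% of genes under 10 kb were higher and 12.3% lower. With cells holding none drawn to match the share of UMIs from long genes, 18.9% of long genes were higher and 19.8% lower, and 2879 genes were called in all. Most genes named as higher in this comparison span 100 kb or more, Egfem1, Nrxn3 and Slit3 among them, but Ccdc3 and Ptpru do not. Of those named as lower only Abtb2 does. Of the gate genes Tll1 and Adgrg6 span 100 kb or more, and Flrt2 and Lhx6 do not. Against venous-gated cells, of genes that span 100 kb or more, 27.7% were higher and 8.01% lower in members, and of genes under 10 kb 2.04% were higher and 15.6% lower. The median share of a cell's UMIs from genes of 100 kb or more was 19.97% and 20.4% in members. It was 18.9% and 19.6% in cells holding none, and 17.7% and 18.8% in venous-gated cells. Arterial-gated cells, which were not matched on it, had 21.8% and 21.9%. With venous-gated cells drawn to match that share, an alternative added after the data were seen, 1442 genes were called, 13.7% of long genes were higher and 12.6% lower, and 12 of 12 named genes remained called. Lists of short, abundant genes changed with it. Cytosolic ribosome genes had 0 higher and 76 lower of 77 as deposited and 28 higher and 1 lower with the match, and nuclear OXPHOS genes had 62 lower of 77 and 0 lower with the match, so no direction is given for them. Of 14 glycolysis genes 8 were lower with the match and 12 without it.

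Members were not one cluster. MMPlow endothelial cells were clustered without the rule's genes and the label markers, which gave 15 clusters, as a description. Cluster 2, led by Egfem1, Nrxn3, Slit3, Col23a1 and Col13a1, held 2384 cells, and 71.2% and 75.3% of them by library were members. It held 43.4% of all members, and 83.9% of its cells met the venous limit. Over both libraries, no other cluster held more than 29.8% members. The next by share were cluster 7, led by Fendrr, with 29.8%, cluster 8 with 26.2%, and cluster 4, led by Cdc20 and Ccnb2 beside Afp, with 22.8%. Cluster 8 was led by Gpc6, Gpc3, Aff2, Unc5c, Cdh11 and Vcan, and whether it holds RNA of other cells was not tested. Cluster 6, led by Sox6, Gja5 and Dkk2, held 7.62%. Of the 15 nearest neighbours of a member 50.2% and 52.6% on average were members, against 9.28% and 9.49% for cells holding none and 23.8% of all these cells.

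Levels of the leading genes in members outside cluster 2 are given as a description. Egfem1 was at 226 and 238 CPM in members inside, 42.4 and 47.9 CPM in members elsewhere and 11.7 and 10.1 CPM in cells elsewhere that held none of the genes. Cells of cluster 2 that were not members had 129 and 140 CPM. Nrxn3 was at 732 and 724 CPM inside, 200 and 171 CPM in members elsewhere and 650 and 747 CPM in the cluster's other cells. Both genes lead the cluster, so cells placed in it are high for them by construction. The other cells of the cluster had fewer UMIs, with medians of 3350 and 3912 against 3615 and 4233. Of the 4 genes of the rule, Lhx6 was at 128 and 121 CPM in members inside against 107 and 85.2 CPM elsewhere, while Adgrg6 was at 155 and 167 CPM against 50.7 and 49.2 CPM. Zfpm2 was highest outside, at 2285 CPM in cluster 14, led by Pld5, Reln and Nts, where 8.0% of cells were members, against 1413 CPM in cluster 2.

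**Figure D5:**
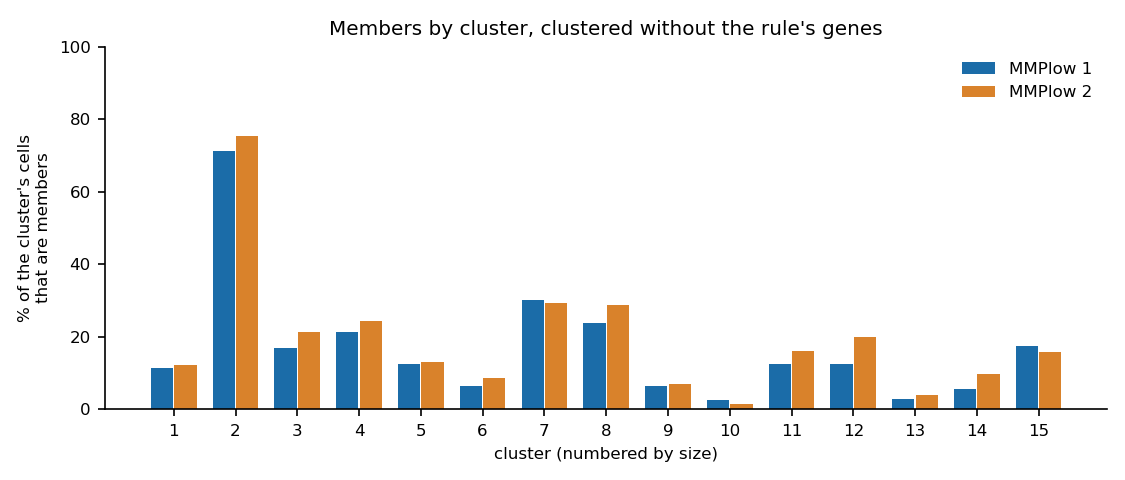
Percentage of each cluster's cells that were members (vertical axis) for 15 clusters of MMPlow endothelial cells numbered by size; bars are the 2 libraries. Cluster 2 stands at 71.2% and 75.3%, and the next, cluster 7, at 30.01% and 29.43%.

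The 6 members of the MMPhigh libraries can only be listed. They summed to 47979 UMIs in MMPhigh 1 and 83794 in MMPhigh 2, from cells of 7468 to 23302 and 19186 to 43911 UMIs. Flrt2 had 36 and 54 UMIs, Tll1 13 and 4, Lhx6 4 and 20, and Adgrg6 2 and 14. Nrxn3 had 6 and 95 UMIs, Slit3 1 and 47, and Egfem1 0 and 11. Of the 12 lower genes, 9 had 0 UMIs in both libraries, Gja4 and Sorbs2os had 1 and 0, and Abtb2 had 0 and 3, from 1 cell, which in MMPhigh 2 is 35.8 CPM with an exact Poisson interval of 7.38 to 105 CPM that holds the level in MMPlow members (19.0 and 23.1 CPM). In MMPhigh 2 all UMIs of Slit3 came from 1 cell and those of Egfem1 from 2, and 3 cells are too few for a test between the fractions.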

How the data were processed

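UMI counts per gene and barcode were used as the authors deposited them, unnormalized, from 10x 3' v3 libraries. Cell Ranger is version 7.0.1 per the file headers and 2.1.1 per the submitters' processing notes, and the build is mm10 per those notes; the annotation is not given in the sources used here. Cells with at least 2000 UMIs, 1000 genes and under 25% mitochondrial UMIs were kept. Members and gene lists were chosen with earlier results of these data known. The gate genes came from clusters of these same cells, so p-values are not independent evidence.

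UMIs summed per library and population were tested with edgeR 4.0.16 (TMM, filterByExpr, robust quasi-likelihood F-test, two-sided, Benjamini-Hochberg, threshold 0.05), with 3 populations and 2 MMPlow libraries in each fit and the library as a block. The populations of 1 library share its cells' source, which is where the pairing comes from. The 15 rule genes and label markers, and the arterial and venous gate genes in the comparisons that used them, stayed out of the counts. Named genes were the 12 (6 against arterial- or venous-gated cells) with the largest fold in each direction among called genes with at least 20 CPM in the higher population and the same direction in both libraries, without predicted and ribosomal protein genes. One of them is not reported here. Log2 folds are members over the others. Scrublet marked 2 cells in MMPlow 1, where it has not worked, and 996 in MMPlow 2; no doublets were removed. On simulated data the fits recovered 92.4%, 50.8% and 90.5% of genes given a log2 change of 1, and 65.2%, 37.5% and 57.1% of those given 0.5, in the comparisons with no gate gene, arterial- and venous-gated cells. False calls numbered 11, 8 and 5. The simulated sums had the same dispersion for all genes and no library effect, so these rates need not hold for the real sums. Clusters used scanpy 1.11.5. Gene spans and places are from GENCODE vM21.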

Additional observations from a re-analysis of the deposited data

How the results depend on the processing

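With no replicate block, 1236, 1974 and 634 genes were called against cells holding none, arterial-gated and venous-gated cells, in place of 3411, 3189 and 2788. DESeq2's Wald test, which kept the library block, called 1222, 1855 and 717. The sums of 1 library share their source, and the block removes what they share. How far this accounts for the gap without the block was not tested. The cause of the gap between DESeq2 and edgeR, both with the block, was not tested either. Matching venous-gated cells on the share of long genes left 1442. The remaining alternatives gave 2475 to 3880 genes against cells holding none. The 24, 12 and 12 named genes kept their call and direction in all 408, 72 and 84 tested values, with a largest adjusted p of 0.0192, 1.54e-05 and 0.0355 over those alternatives. Each single library gave the same sign for all of them, as a value with no test. Naming required the same direction in both libraries, so these signs support nothing.

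The share difference of -12.4 points, MMPhigh minus MMPlow, was -0.0636 with 3 or more of the 4 genes required, -1.09 with Flrt2 left out of the gate and -4.24 after thinning to 2000 UMIs. It was -16.9 to -7.95 with each library left out in turn. It rests on 6 MMPhigh cells, and the cause was not tested. Removing the cells with the highest 6% of Scrublet scores, an alternative added after the data were seen like those on long genes and shared barcodes, left 3383, 3112 and 2748 genes called.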
